A study of Mus musculus with 68 samples.

Results

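The growth plate comparison described here set 5 laser-captured libraries of the hypertrophic zone against 5 of the proliferative zone, all from xylene-fixed sections at postnatal day 28 (P28), and these 10 libraries were chosen by their labels out of 68 in the whole series. The series measured gene expression by SMART-seq2, which copies whole transcripts from very small inputs, in zones of mouse growth plate cartilage picked with a laser from stained frozen sections. The mice were of mixed background, and no allele or treatment is named in the labels of any of the 10 libraries. Only 2 animals gave them: Pup1_L gave 4 hypertrophic and 3 proliferative libraries, and Pup4_L gave 1 hypertrophic and 2 proliferative libraries. Libraries of 1 animal are repeats within that animal, so the counts were summed per animal and zone before any test. Replicates are numbered within a zone in the order in which the samples were listed. Hypertrophic replicate 5 and proliferative replicates 4 and 5 are from Pup4_L.

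In the growth plate, chondrocytes of the proliferative zone divide in columns and lay down a matrix of type II collagen and aggrecan. They then leave the cell cycle, enlarge, make type X collagen and prepare the matrix for mineral, and this hypertrophic zone lies next to the bone that replaces it. Indian hedgehog, made by cells entering hypertrophy, and parathyroid hormone-related protein, read by the receptor Pth1r, set the place at which division stops.

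The libraries held between 370654 and 2675003 counts. The ribosomal RNA symbol Rn45s took 12.6% to 39.4% of the counts in 9 libraries and 78.7% in proliferative replicate 5. Lars2 took 0.605% to 4.74% and Glra2 0.0233% to 1.02%. Levels of single libraries are therefore given as counts per 1000000 (CPM) of the counts outside these 3 symbols, which numbered 360109 to 2105470 in 9 libraries and 62977 in proliferative replicate 5. One count in that shallow library is worth 15.88 CPM. Xist, which is made from an inactive X chromosome, had 2279 counts in the hypertrophic library of Pup4_L and 2375 and 39 counts in its proliferative libraries, against 0 to 3 counts in the Pup1_L libraries other than hypertrophic replicate 3, which had 31.

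Hypertrophic replicate 3 did not hold the cartilage named on its label. Col2a1, which encodes the type II collagen of cartilage, stood at 89.3 CPM in this library, while the other hypertrophic libraries had 68543, 74447, 133880 and 152710 CPM and the proliferative libraries had 38331, 116850, 121440, 95513 and 156410 CPM. The link protein gene Hapln1 had 102 CPM and Col9a1 had 20.4 CPM there, against at least 24893 and 16624 CPM in the other hypertrophic libraries. In place of these genes, hypertrophic replicate 3 held 79764 CPM of Col1a1 and 107880 CPM of Col1a2, the chains of type I collagen in bone and fibrous tissue. The other 4 hypertrophic libraries had 13.9 to 57.9 CPM of Col1a1 and the 5 proliferative libraries had 8.06 to 167 CPM.

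**Figure D1:**
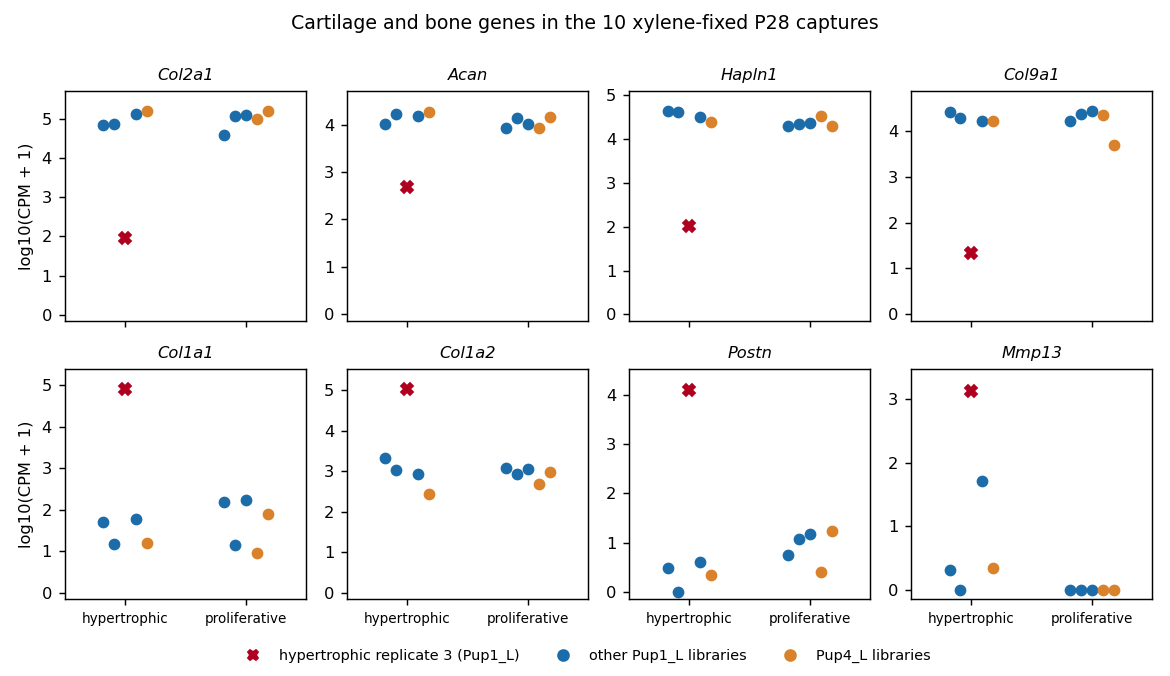
Level of 4 cartilage genes (top) and 4 genes of bone and fibrous tissue (bottom) in each library, as log10 of CPM + 1, with 1 point per library and no mean drawn. Hypertrophic replicate 3 (red cross) stands at 89.3 CPM of Col2a1 and 79764 CPM of Col1a1, apart from the other 9 libraries in both.

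The same library stood apart over whole lists of markers. The summed level of 16 perichondrium, periosteum and fibroblast markers was 252300 CPM in it, against 3087 to 6614 CPM in the other hypertrophic and 2654 to 4481 CPM in the proliferative libraries. The 18 osteoblast and osteocyte markers summed to 211900 CPM in it, to 3668 to 10230 CPM in the other hypertrophic libraries and to 884 to 1778 CPM in the proliferative libraries, and the 10 osteoclast markers summed to 271, 0 to 19.7 and 0 to 114 CPM in the same order of groups. Of all genes, 53 had over 100 CPM in hypertrophic replicate 3 and under 10 CPM in each of the other 9 libraries. These were picked out after the values were seen, and they included Tnn (tenascin-W) at 1958 CPM, Igf1 at 1156 CPM, Cdh11 (a cadherin of mesenchymal cells) at 726 CPM, Tnmd (tenomodulin, known from tendon) at 304 CPM and the mast cell proteases Cpa3 and Cma1 at 315 and 169 CPM. Among late bone markers, Bglap (osteocalcin) had 27.5 CPM in it, against at most 4.397 CPM in the other 9 libraries. Dmp1, from the osteoblast and osteocyte list, had 32.8 CPM in it, against at most 0.580 CPM in the others. Sost (sclerostin) had 2.37 CPM in it, slightly below its level in proliferative replicate 2. All of these lay far below Col1a1 in hypertrophic replicate 3. Calls below are given with and without this library, and where other values leave it out, its own level or the change with it is named beside them for most named genes and lists.

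Without hypertrophic replicate 3, the summed cartilage and hypertrophic markers of the captures went with their labels as cartilage of 2 zones. The 32 cartilage matrix genes summed to 281200 to 292300 CPM in the hypertrophic and 222500 to 300300 CPM in the proliferative libraries. The 20 prehypertrophic and hypertrophic markers summed to 39580 to 122700 CPM in the hypertrophic and 3015 to 23740 CPM in the proliferative libraries, with no overlap. The 18 osteoblast and osteocyte markers, which include Ibsp and Spp1 of that list, also lay higher without overlap, at the sums given above. Of 8 tested, 3 rose (Ibsp, Phex and Spp1), where 0.111% of all genes rose, and the median log2 change was 3.27. Col1a1 and Col1a2 overlapped between the zones. Whether bone cells at the border added to these levels was not tested. Among markers of other cell types, 10 erythroid markers summed to 18.0 to 342 CPM in hypertrophic and 7.22 to 175 CPM in proliferative libraries, and 18 haematopoietic and marrow markers to 19.7 to 72.2 and 4.33 to 50.6 CPM. The 8 adipocyte markers summed to 0 to 2.07 CPM in hypertrophic and 0 to 32.0 CPM in proliferative libraries, and 12 muscle markers to 226 to 828 and 31.8 to 453 CPM. In all but proliferative replicate 5, most of the muscle sum was Tnni2, at 204 to 786 CPM in hypertrophic and 0 to 438 CPM in proliferative libraries. Mylpf, Myl1 and Tnnt3 each had at most 18.5 CPM. The 15 endothelial and mural markers summed to 780 to 2162 and 646 to 1581 CPM, most of it from Cspg4 at 776 to 2135 and 612 to 1563 CPM, while the endothelial cadherin Cdh5 was at 0 in these 9 libraries.

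With all 5 hypertrophic libraries, 5 of 9100 genes tested passed the threshold of an adjusted p of 0.05 in edgeR's quasi-likelihood test, which is 0.0549% of them. Ibsp, Loxl4, Phex and Mmp13 were higher (0.044%) and Prelp was lower (0.011%) in the hypertrophic zone. Without hypertrophic replicate 3, 14 of 9046 genes passed (0.155%): 10 were higher (0.111%), namely Ibsp, Loxl4, Phex, Spp1, Cxcr7, Irx5, Itga7, Alpl, Lipg and Slc37a2, and 4 were lower (0.0442%), namely Trabd2b, Mki67, Scara3 and Hhip. Ibsp, Loxl4 and Phex passed both times. With hypertrophic replicate 5, the only hypertrophic library of Pup4_L, left out as well as replicate 3, Ibsp alone passed, and without hypertrophic replicates 3 and 4 there were 4 calls. At an unadjusted p under 0.05 there were 335 and 470 genes. The library values gave a second, untested view: in 90 of 9046 genes (0.995%) all 4 hypertrophic libraries lay above all 5 proliferative libraries, and in 205 (2.27%) they all lay below. With all 5 hypertrophic libraries these counts were 39 (0.429%) and 91 (1.0%) of 9100. Among so few libraries some genes separate fully by chance alone, and that share was not computed. Libraries of 1 animal are also repeats, so a lack of overlap is a description and no evidence of a zone difference by itself. Such bulk captures cannot tell fewer cells of a type from less RNA per cell.

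Ibsp, Phex, Spp1 and Alpl, genes of mineralising matrix, and Slc37a2, a transporter placed in the mineralisation list, rose in the hypertrophic zone without replicate 3. Ibsp encodes bone sialoprotein, a matrix protein that binds mineral, and lies at chr5:104299171-104311469 on the forward strand (GRCm38, GENCODE). It had 1065, 1755, 7877 and 8334 CPM in hypertrophic replicates 1, 2, 4 and 5 and 23409 CPM in replicate 3, against 9.14, 2.499, 3.61, 2.93 and 15.9 CPM in the proliferative libraries. Every hypertrophic library was above every proliferative library in both animals. Ibsp rose by 11.07 ± 1.18 on the log2 scale (SE; edgeR adjusted p = 5.45e-17) without replicate 3, and by 11.73 ± 1.20 (edgeR adjusted p = 1.69e-18) with it. It was the one gene past the threshold in every fit that left out a single library and in the fits without either animal, in which the edgeR adjusted p was 1.88e-05 without Pup1_L and 0.000338 without Pup4_L, replicate 3 also left out.

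Because Ibsp led the comparison, the 250 bases before its RefSeq start (GRCm38.p6, chr5:104299037-104299286, forward strand, from RefSeq) are shown here, with the letters ATTGG, the inverted form of the CCAAT box, in capitals. The box begins 54 bases before the RefSeq start. The GENCODE start given above, 104299171, lies inside this window, so by that annotation the box is inside the gene. It was searched as CCAAT or ATTGG, and 33.8% of 32851 RefSeq promoters of this length hold one or the other.
Ibsp: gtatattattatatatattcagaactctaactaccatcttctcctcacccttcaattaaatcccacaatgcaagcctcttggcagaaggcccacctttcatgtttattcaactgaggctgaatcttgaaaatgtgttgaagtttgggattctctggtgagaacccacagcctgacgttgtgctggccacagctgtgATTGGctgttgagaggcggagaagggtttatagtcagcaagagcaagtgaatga

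Phex and Spp1 are further genes of mineralising matrix. Phex, a membrane protease whose loss disturbs phosphate balance and mineralisation, had 2.07, 139, 692 and 365 CPM in hypertrophic replicates 1, 2, 4 and 5 and 118 CPM in replicate 3, against a single count, 0.733 CPM, in the 5 proliferative libraries. The ratio of the summed levels without replicate 3 was 1740, with a 95% counting interval of 313 to 68900, and Phex rose with edgeR adjusted p = 7.51e-05 without replicate 3 and 0.000197 with it. Spp1, which encodes osteopontin, had 45.5, 5.55, 199 and 42.3 CPM in the same 4 hypertrophic libraries and 93.1 CPM in replicate 3, against 0, 0, 1.44, 0 and 47.6 CPM in the proliferative libraries. The groups overlapped through proliferative replicate 5, in which 47.6 CPM of Spp1 is 3 counts. Spp1 rose by 6.38 ± 1.44 (SE; edgeR adjusted p = 0.0257) without replicate 3 and had 6.20 ± 1.47 (adjusted p = 0.0502) with it.

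Alpl, the alkaline phosphatase that frees phosphate from the mineral inhibitor pyrophosphate, had 1043, 3591, 3661 and 5660 CPM in hypertrophic replicates 1, 2, 4 and 5 and 1138 CPM in replicate 3, against 146, 263, 344, 566 and 1572 CPM in the proliferative libraries. Hypertrophic replicates 1 and 3 lay below proliferative replicate 5, and all other values were apart. Alpl rose by 3.72 ± 0.91 (SE; edgeR adjusted p = 0.0355) without replicate 3 and had 3.54 ± 0.93 (adjusted p = 0.0902) with it. Slc37a2, a sugar phosphate transporter, had 2.07, 0, 73.7 and 157 CPM in these 4 libraries and 2.85 CPM in replicate 3, and it was at 0 in all 5 proliferative libraries. Against a floor of 3 counts over the proliferative group, Slc37a2 was at least 124-fold higher (edgeR adjusted p = 0.0494 without replicate 3, 0.0902 with it). Of the 13 tested mineralisation genes, 4 rose and none fell without replicate 3 (Ibsp, Spp1, Alpl and Slc37a2), where 0.111% of all genes rose, and the median log2 change of the 13 was 1.28 beside -0.12 over all genes. With all libraries 1 rose (0.044% of all genes), and the median was 1.17 beside -0.05 over all genes. This list, like all the others, was chosen with earlier results of these data known, so its shares are descriptions and no test.

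Loxl4, a lysyl oxidase of the family that cross-links collagen, lies at chr19:42593982-42612813 on the reverse strand (GRCm38, GENCODE). Its level was 402, 436, 3015 and 3994 CPM in hypertrophic replicates 1, 2, 4 and 5 and 39.0 CPM in replicate 3, against 59.4, 2.499, 20.2, 24.9 and 0 CPM in the proliferative libraries. Without replicate 3 the groups did not overlap, and replicate 3 lay inside the proliferative range. Loxl4 rose by 7.59 ± 1.15 (SE; edgeR adjusted p = 2.00e-07) without replicate 3 and by 7.30 ± 1.17 (edgeR adjusted p = 2.18e-06) with it. Of the other tested lysyl oxidases none passed the test, and Lox itself was at 0, 0, 5.26 and 31.9 CPM in the 4 hypertrophic libraries, 322 CPM in replicate 3 and 0 in the proliferative libraries.

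**Figure D2:**
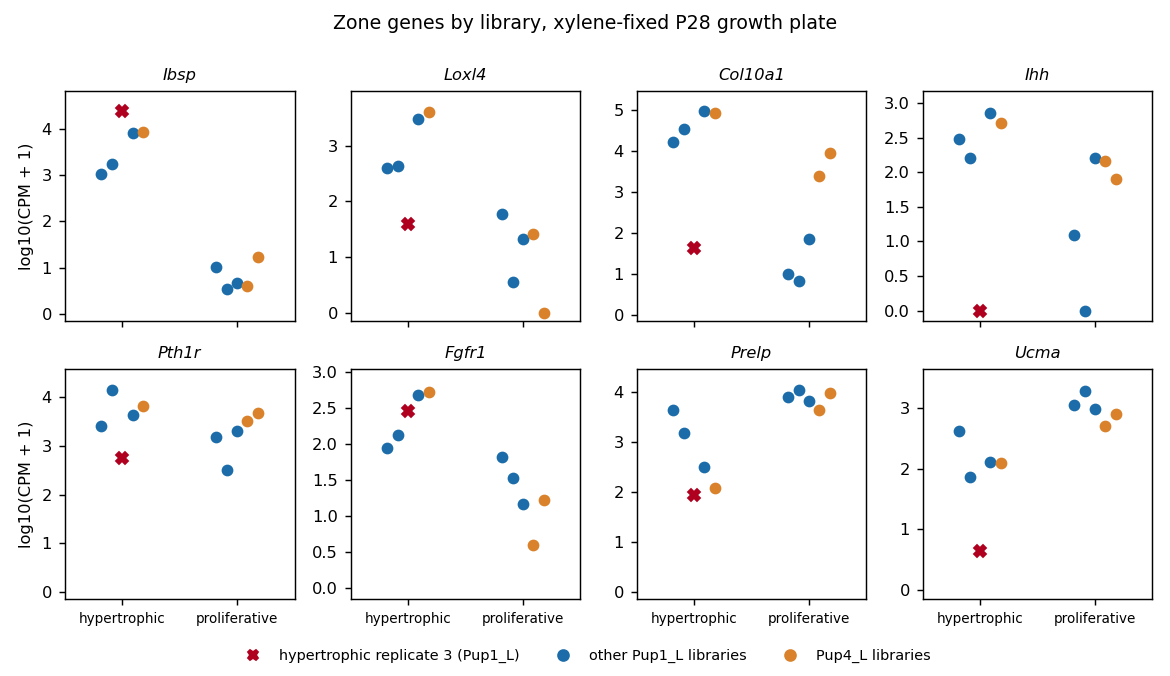
Level of 8 genes in each library as log10 of CPM + 1, 1 point per library, coloured by animal. Ibsp is higher in all 5 hypertrophic libraries (at least 1065 CPM, against at most 15.9 CPM in proliferative libraries), while Col10a1 and Loxl4 are higher in 4 of them and lie low in hypertrophic replicate 3.

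Type X collagen, which marks the hypertrophic zone, separated the libraries once replicate 3 was left out but did not pass the test. Its change was close in size to the 7.59 ± 1.15 of Loxl4 without replicate 3, and its SE was larger. That SE is derived from the test itself, so it restates the result of the test and gives no reason for it. The reason was not tested. Col10a1, which encodes type X collagen, had 16706, 33762, 93074 and 83353 CPM in hypertrophic replicates 1, 2, 4 and 5 and 41.8 CPM in replicate 3, against 9.14, 5.83, 70.0, 2412 and 8924 CPM in the proliferative libraries. The 2 highest proliferative values were those of Pup4_L. Col10a1 had a log2 change of 7.18 ± 3.40 (SE; edgeR adjusted p = 1) without replicate 3 and 6.84 ± 3.27 (adjusted p = 1) with it. Ihh, the Indian hedgehog ligand, had 304, 158, 714 and 514 CPM in the 4 hypertrophic libraries and 0 in replicate 3, against 11.4, 0, 163, 147 and 79.4 CPM in the proliferative libraries. Hypertrophic replicates 2 and 3 overlapped the proliferative range, and the change of 2.75 ± 1.29 without replicate 3 and 2.28 ± 1.29 with it did not pass (edgeR adjusted p = 0.913 and 1). Pth1r, the receptor, had 2612, 14362, 4271 and 6481 CPM in the 4 hypertrophic libraries and 566 CPM in replicate 3, against 1499, 320, 1983, 3286 and 4859 CPM in the proliferative libraries, and its change of 1.93 ± 0.77 without replicate 3 and 1.5001 ± 0.78 with it did not pass (edgeR adjusted p = 0.685 and 1).

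Of the 20 prehypertrophic and hypertrophic markers, all tested, 4 rose without replicate 3 and none fell, where 0.111% of all genes rose, with a median log2 change of 2.03 beside -0.12 over all genes. These were Ibsp, Loxl4, Spp1 and Alpl. With all libraries 3 rose, Mmp13 among them, and the median was 1.78. This list, too, was chosen with earlier results of these data known. Without replicate 3, Col10a1, Ibsp and Loxl4 lay above the proliferative range in all 4 libraries (15% of the list, 0.995% of all genes), and Runx3 and Pkdcc lay below it (10% of the list, 2.27% of all genes). Runx3, a Runt transcription factor of chondrocyte maturation, had 152, 161, 83.6 and 15.7 CPM in the 4 hypertrophic libraries and 129 CPM in replicate 3, against 229, 377, 440, 390 and 556 CPM in the proliferative libraries. Its relative Runx2 had 316, 122, 480 and 644 CPM in the 4 hypertrophic libraries and 617 CPM in replicate 3, against 391, 378, 349, 473 and 31.8 CPM, and the groups overlapped.

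Mmp13, collagenase 3, which breaks down cartilage collagen at the border with bone, was called only with replicate 3 (edgeR adjusted p = 0.0206 with it, 0.235 without it). It had 1365 CPM in replicate 3 and 1.03, 0, 50.9 and 1.16 CPM in hypertrophic replicates 1, 2, 4 and 5, against 0 in every proliferative library. Against a floor of 3 counts over the proliferative group, the 4 libraries were at least 28-fold higher, and 87 of their 90 counts were in replicate 4. Timp3, an inhibitor of matrix proteases, had 455, 1574, 1851 and 1119 CPM in the 4 hypertrophic libraries, 662 CPM in replicate 3 and 357, 251, 325, 185 and 15.9 CPM in the proliferative libraries. All hypertrophic libraries were higher, and the change of 2.90 ± 0.98 without replicate 3 and 2.67 ± 0.99 with it did not pass (edgeR adjusted p = 0.444 and 0.803). Of 15 tested proteases and inhibitors, none passed without replicate 3, and their median log2 change was 0.85, and with all libraries Mmp13 passed and the median was 1.73.

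The other genes that rose without replicate 3 were outside the mineral and collagen groups. Irx5, an Iroquois homeobox transcription factor, had 30.01, 33.3, 266 and 262 CPM in hypertrophic replicates 1, 2, 4 and 5 and 33.7 CPM in replicate 3, against 0, 0, 0, 4.40 and 0 CPM in the proliferative libraries. All 5 hypertrophic libraries were higher, and Irx5 rose by 7.83 ± 1.87 (SE; edgeR adjusted p = 0.0338) without replicate 3 and had 7.58 ± 1.87 (adjusted p = 0.0525) with it. It was 1 of 21 tested chondrocyte transcription factors to pass without replicate 3, where 0.111% of all genes rose, and none of 23 passed with it. In the same list Sox5 and Sox6, partners of Sox9 in driving cartilage genes, lay lower without overlap: Sox5 had 63.1, 77.8, 43.8 and 75.4 CPM in the 4 hypertrophic libraries and 17.1 CPM in replicate 3, against 167, 268, 188, 84.3 and 175 CPM in the proliferative libraries, and neither passed.

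Cxcr7, an atypical receptor for the chemokine Cxcl12, had 6.21, 8.33, 180 and 148 CPM in the 4 hypertrophic libraries and 15.2 CPM in replicate 3, against 0 in all 5 proliferative libraries. It was at least 178-fold higher (edgeR adjusted p = 0.0290 without replicate 3, 0.0502 with it). Itga7, the alpha 7 subunit of a laminin-binding integrin, had 5.17, 0, 42.1 and 435 CPM in the 4 libraries and 2.37 CPM in replicate 3, and was at 0 in the proliferative libraries. It was at least 258-fold higher (edgeR adjusted p = 0.0355 without replicate 3, 0.0650 with it), and most of it stood in the 1 library of Pup4_L. Lipg, endothelial lipase, had 3.10, 122, 163 and 281 CPM in the 4 libraries and 0 in replicate 3, against 3 counts in all proliferative libraries together. Its ratio was 252 with a 95% counting interval of 85.9 to 1220 (edgeR adjusted p = 0.0388 without replicate 3, 0.104 with it).

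In Ibsp, Loxl4, Col10a1, Irx5, Cxcr7 and Slc37a2 alike, hypertrophic replicates 4 and 5 stood above replicates 1 and 2. Replicate 4 is from Pup1_L, as are replicates 1 and 2, and replicate 5 is from Pup4_L, so the split did not follow the animals. Spp1, Pth1r and Timp3 did not show it, since replicate 1 exceeded replicate 5 in Spp1 and replicate 2 exceeded one or both of replicates 4 and 5 in Pth1r and Timp3. Rn45s took 36.8% and 39.4% of the counts in replicates 1 and 2 and 26.4% and 12.6% in replicates 4 and 5, and its part in the split was not tested. The genes were named by their difference between zones, and the split was seen in the values and not tested.

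Mki67 fell in the hypertrophic zone without replicate 3, and 13 of 40 tested cell cycle genes, Mki67 among them, lay lower there without overlap. Mki67, which encodes the Ki-67 protein of dividing cells, had 0, 2.78, 0 and 1.16 CPM in hypertrophic replicates 1, 2, 4 and 5 and 53.7 CPM in replicate 3, against 1063, 517, 346, 57.9 and 778 CPM in the proliferative libraries. There were 3 counts in the 4 hypertrophic libraries and 1694 in the 5 proliferative libraries, a ratio of 0.00166 with a 95% counting interval of 0.000341 to 0.00485. Mki67 fell without replicate 3 (edgeR adjusted p = 0.0338) and did not pass with it (adjusted p = 0.400). It was the 1 of 40 tested cell cycle genes to pass without replicate 3, where 0.0442% of all genes fell, and none passed with it. The median log2 change of the list was -3.56 without replicate 3, beside -0.12 over all genes, and 36 of the 40 were below 0. With replicate 3 the median was -2.46. The summed level of the list was 2862 to 4946 CPM in the 4 hypertrophic libraries and 1480 CPM in replicate 3, against 3557 to 7102 CPM in the proliferative libraries, with overlap.

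In 13 of these 40 genes (32.5%, beside 2.27% of all genes) the 4 hypertrophic libraries all lay below the 5 proliferative libraries. Top2a, the topoisomerase that untangles DNA in dividing cells, had 2.07, 13.9, 0 and 58.55 CPM in the hypertrophic and 690, 584, 333, 174 and 206 CPM in the proliferative libraries. Cdk1, the kinase that drives entry into mitosis, had 1.03, 0, 0.585 and 0 CPM against 57.1, 292, 94.6, 21.3 and 15.9 CPM. Cenpf, a kinetochore protein, had 2 counts in the 4 hypertrophic and 653 in the 5 proliferative libraries, a ratio of 0.00286 with a 95% counting interval of 0.000346 to 0.0104. In proliferative replicate 5, several of the 13, Cdk1 and Nusap1 among them, rested on a single count. Hypertrophic replicate 3 held 19.95 CPM of Cdk1, within the proliferative range, and 61.7 CPM of Top2a and 17.1 CPM of Cenpf.

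**Figure D3:**
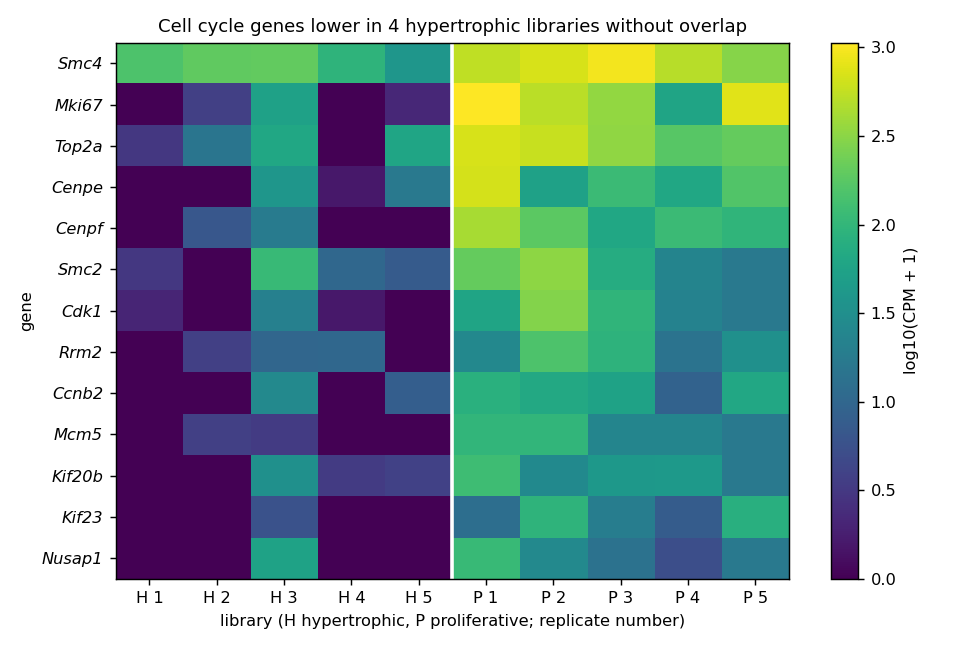
Level of the 13 cell cycle genes whose 4 hypertrophic libraries (H 1, 2, 4 and 5) all lie below the 5 proliferative libraries (P 1 to 5), as log10 of CPM + 1 by colour, with the genes ordered by their mean in proliferative libraries. H 3 is shown too and holds several of them, such as 53.7 CPM of Mki67 against at most 2.78 CPM in the other hypertrophic libraries.

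The 250 bases before the RefSeq start of Mki67 (GRCm38.p6, chr7:135716380-135716629, reverse strand, from RefSeq) are shown because boxes of this kind are known from promoters of genes of late cell cycle phases. Capitals mark the CCAAT box (CCAAT or ATTGG) and the cell cycle genes homology region (CHR, searched as TTTGAA or TTCAAA). The CCAAT letters begin 188 and 141 bases before the start, ATTGG begins 166 bases before it, and the CHR letters begin 116 and 98 bases before it. No searched motif overlaps the other.
Mki67: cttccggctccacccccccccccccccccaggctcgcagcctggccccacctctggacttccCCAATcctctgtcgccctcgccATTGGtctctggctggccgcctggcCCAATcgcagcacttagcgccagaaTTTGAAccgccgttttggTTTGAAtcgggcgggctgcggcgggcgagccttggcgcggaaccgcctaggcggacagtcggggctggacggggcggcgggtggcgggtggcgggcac

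Of the 13 cell cycle genes that lay lower without overlap, 12 had a promoter in the RefSeq set. A CCAAT box was in 10 of the 12 (83.3%), beside 37.5% of 27025 symbols with a promoter, and in 49.4% of the 154 genes with a promoter among the 205 that lay lower. The CHR letters were in 5 of the 12 (41.7%), beside 18.3% of all symbols and 21.4% of the 154 lower genes, and 16% of single promoters hold them. The Runx core, searched as TGTGGT or ACCACA, was in 0 of the 12, beside 15.9% of all symbols. These are descriptions of letters and not of sites in use.

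A hedgehog inhibitor, Hhip, and a Wnt-cleaving protease, Trabd2b, fell in the hypertrophic zone without replicate 3. Hhip, which binds hedgehog ligands and is itself induced by hedgehog signalling, had 0, 0, 10.52 and 0.580 CPM in hypertrophic replicates 1, 2, 4 and 5 and 618 CPM in replicate 3, against 480, 704, 287, 35.2 and 79.4 CPM in the proliferative libraries. Without replicate 3 no values overlapped, and Hhip fell by 5.60 ± 1.37 (SE; edgeR adjusted p = 0.0355). With replicate 3 the log2 change was -1.62 ± 1.19 (edgeR adjusted p = 1). Gli1, a hedgehog-induced transcription factor, was at 0 in the 4 hypertrophic libraries and 41.3 CPM in replicate 3, against 0, 24.2, 13.7, 13.9 and 15.9 CPM in the proliferative libraries, and was at least 24.3-fold lower, which did not pass (edgeR adjusted p = 0.509). Hhip was the 1 of 13 tested hedgehog genes to pass without replicate 3, where 0.0442% of all genes fell, and their median log2 change was -0.24. With it none passed and the median was 0.30.

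Trabd2b, a membrane protease that trims Wnt ligands, was at 0 in hypertrophic replicates 1, 2, 4 and 5 and at 16.2 CPM in replicate 3, against 158, 105, 78.0, 35.2 and 31.8 CPM in the proliferative libraries. It was at least 126-fold lower (edgeR adjusted p = 0.0257 without replicate 3, 0.728 with it). Among the Wnt binders, Frzb, a secreted Wnt antagonist of cartilage, had 446, 414, 1577 and 1548 CPM in the 4 hypertrophic libraries and 82.6 CPM in replicate 3, against 20.6, 0, 80.8, 322 and 47.6 CPM in the proliferative libraries. Frzb did not overlap without replicate 3, and its change of 3.78 ± 1.11 without replicate 3 and 3.41 ± 1.09 with it did not pass (edgeR adjusted p = 0.168 and 0.394). Wif1, the Wnt inhibitory factor, was at 0, 0, 49.1 and 289 CPM in the 4 hypertrophic libraries and 62.2 CPM in replicate 3, against 3 counts in all proliferative libraries together. None of the 14 tested genes of this list passed, with a median log2 change of 0.10 without replicate 3, and none of 18 passed with it (median 0.34).

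No tested gene of the FGF, BMP and TGF-beta or GH and IGF lists passed the test, with or without replicate 3. Fgfr1, a fibroblast growth factor receptor, had 85.9, 130, 481 and 528 CPM in hypertrophic replicates 1, 2, 4 and 5 and 288 CPM in replicate 3, against 64.0, 32.5, 13.7, 2.93 and 15.9 CPM in the proliferative libraries. All 5 hypertrophic libraries were higher, and the change was 5.22 ± 1.36 (SE; edgeR adjusted p = 0.0626) without replicate 3 and 5.08 ± 1.37 (adjusted p = 0.110) with it. Fgfr3, the receptor that restrains growth of the growth plate, had 1086, 1297, 834 and 250 CPM in the 4 hypertrophic libraries and 67.9 CPM in replicate 3, against 430, 712, 615, 567 and 191 CPM in the proliferative libraries, with overlap. Bmp2 had 15.5, 13.9, 33.9 and 30.7 CPM in the 4 hypertrophic libraries and 18.05 CPM in replicate 3, against 0, 0, 0, 2.93 and 0 CPM in the proliferative libraries. Bmp6 had 19.7, 0, 114 and 146 CPM in the 4 libraries and 0 in replicate 3, against a single count in the proliferative libraries. Gdf10, another ligand of the family, had 63.1, 2.78, 70.7 and 10.4 CPM in the 4 libraries and 5.70 CPM in replicate 3, against 685, 659, 216, 134 and 286 CPM in the proliferative libraries, lower without overlap.

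Of 23 tested genes of the BMP and TGF-beta list none passed (median log2 change 0.18), 2 lay higher without overlap (Bmp2 and Smad1; 8.70% of the list, 0.995% of all genes) and 2 lower (Gdf10 and Tgfbi; 8.70% of the list, 2.27% of all genes). None of the 3 tested FGF, 15 GH and IGF or 11 PTHrP pathway genes passed, with median log2 changes of 0.37, -0.44 and 0.40 without replicate 3. With it the medians were 3.75, 0.88 and 1.10, and 0.47 for the BMP and TGF-beta list. Aldh1a3, which makes retinoic acid, had 298, 664, 1534 and 1261 CPM in the 4 hypertrophic libraries and 36.6 CPM in replicate 3, against 0, 0, 0, 218 and 95.3 CPM in the proliferative libraries. It did not overlap without replicate 3, and its change of 5.06 ± 1.28 was short of the threshold (edgeR adjusted p = 0.0515; 4.83 ± 1.27 and 0.0929 with replicate 3). None of the 8 tested retinoic acid genes passed (median 0.28 without replicate 3 and 0.33 with it).

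Col2a1 and Col1a1 did not pass the test, and the proteoglycan gene Prelp fell when all libraries were used. Col2a1 had a log2 change of 0.79 ± 0.50 (SE; edgeR adjusted p = 1) without replicate 3 and 0.40 ± 0.53 (adjusted p = 1) with it. Col1a1 had -0.25 ± 1.57 without replicate 3 and 7.52 ± 4.17 with it (edgeR adjusted p = 1 each). Prelp, a small leucine-rich proteoglycan that binds collagen, had 4241, 1511, 312 and 118 CPM in hypertrophic replicates 1, 2, 4 and 5 and 84.1 CPM in replicate 3, against 7685, 10806, 6595, 4344 and 9527 CPM in the proliferative libraries. All hypertrophic libraries were lower, replicate 1 only just. Prelp fell by 3.59 ± 0.84 (SE; edgeR adjusted p = 0.0370) with all libraries and had -2.98 ± 0.82 (adjusted p = 0.106) without replicate 3.

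Ucma, a secreted protein of early chondrocytes, had 413, 72.2, 126 and 121 CPM in the 4 hypertrophic libraries and 3.33 CPM in replicate 3, against 1140, 1935, 973, 513 and 794 CPM in the proliferative libraries. It was lower without overlap, and its change of -1.97 ± 0.98 without replicate 3 and -2.41 ± 1.02 with it did not pass (edgeR adjusted p = 0.948 and 1). Tgfbi, an extracellular adhesion protein, had 93.1, 77.8, 0 and 0 CPM in the 4 hypertrophic libraries and 399 CPM in replicate 3, against 832, 791, 935, 318 and 794 CPM in the proliferative libraries, and its change of -5.23 ± 1.39 without replicate 3 and -3.36 ± 1.33 with it did not pass (edgeR adjusted p = 0.0789 and 1). C1qtnf3, a secreted C1q-family protein of cartilage, had 1593, 1552, 455 and 191 CPM in the 4 hypertrophic libraries and 159 CPM in replicate 3, against 3583, 7010, 4023, 2080 and 1159 CPM in the proliferative libraries. It overlapped only through proliferative replicate 5 and had -2.43 ± 0.85 without replicate 3 and -2.86 ± 0.88 with it (edgeR adjusted p = 0.506 and 0.287). Comp, an oligomeric matrix protein, and Matn1, a matrilin, lay higher without overlap once replicate 3 was left out, Matn1 at 1653, 3049, 2454 and 2830 CPM in the 4 hypertrophic libraries and 3.33 CPM in replicate 3, against 1058, 597, 964, 999 and 524 CPM in the proliferative libraries.

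**Figure D4:**
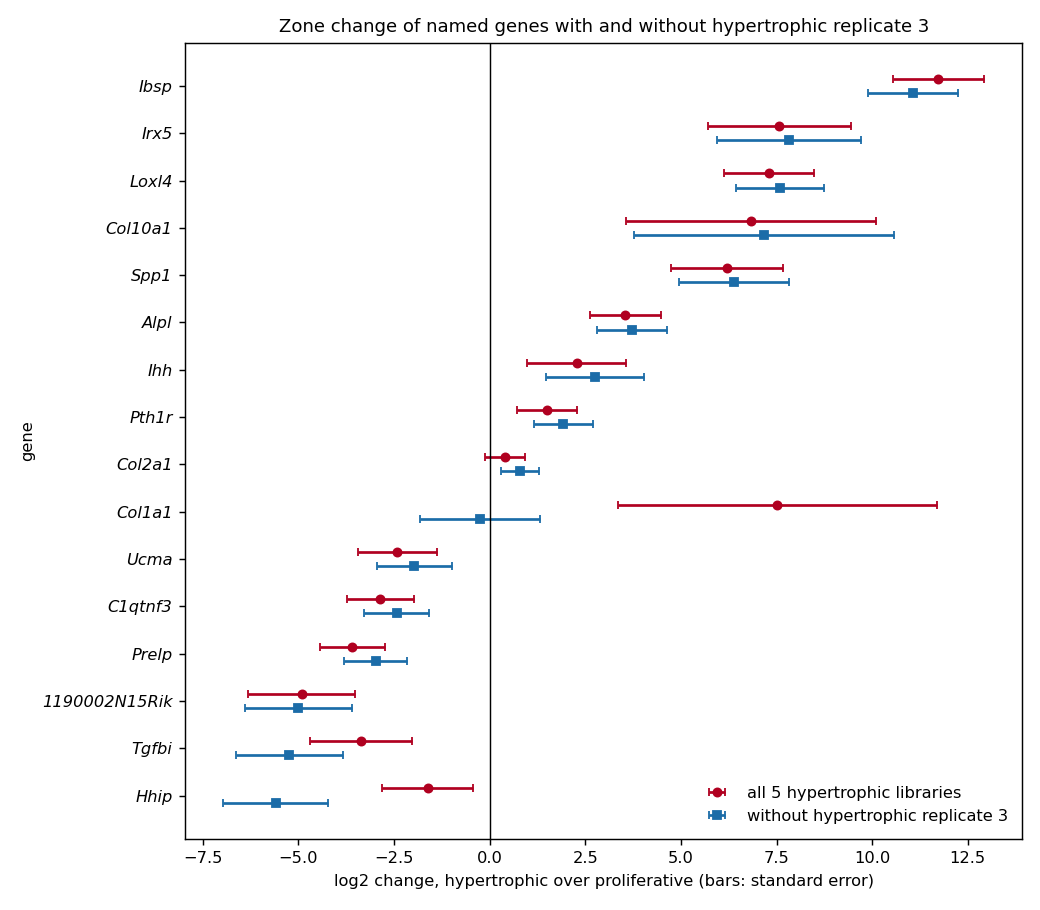
Log2 change, hypertrophic over proliferative, of the genes named by rule that held over 3 counts in each zone, with bars for the standard error. Red circles use all 5 hypertrophic libraries and blue squares leave out hypertrophic replicate 3. Ibsp stays near 11 either way, while Col1a1 (7.52 and -0.25) and Hhip (-1.62 and -5.60) depend on that library.

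Of 30 tested cartilage matrix genes none passed without replicate 3 (median log2 change 0.02), and Prelp passed with all libraries (median -0.10). Of 17 tested resting and early chondrocyte markers, 1 fell without replicate 3, where 0.0442% of all genes fell, and the median was -1.002, and with it none passed and the median was -0.63. That gene was Scara3, a scavenger receptor-like protein. It was at 0 in hypertrophic replicates 1, 2, 4 and 5 and at 356 CPM in replicate 3, against 2.29, 45.0, 6.496, 44.7 and 0 CPM in the proliferative libraries. The groups met at 0 in the shallow proliferative replicate 5, and Scara3 was at least 44.6-fold lower over the summed libraries (edgeR adjusted p = 0.0355 without replicate 3, 1 with it). A pair of further genes lay lower without overlap and did not pass. 1190002N15Rik had 67.3, 8.33, 18.7 and 0 CPM in the 4 hypertrophic libraries and 49.9 CPM in replicate 3, against 350, 418, 535, 298 and 95.3 CPM in the proliferative libraries. Sept3, a septin, was at 0 in all 5 hypertrophic libraries against 9.14, 32.5, 58.5, 114 and 31.8 CPM in the proliferative libraries.

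In the lists of general cell functions no gene passed, with or without replicate 3. Without it, the 29 tested glycolysis and hypoxia genes had a median log2 change of -0.44, and their summed level was 4160 to 5858 CPM in the 4 hypertrophic and 6785 to 9468 CPM in the proliferative libraries, with no overlap. The 34 genes of secretion and collagen folding had a median of -0.16, and Plod1, a collagen lysyl hydroxylase, lay lower without overlap at 183, 147, 244 and 159 CPM in the 4 hypertrophic libraries and 165 CPM in replicate 3, against 420, 376, 430, 287 and 556 CPM in the proliferative libraries. Median log2 changes were -0.30 in 23 glycosaminoglycan synthesis genes, -1.81 in 13 genes of the amino acid response, 0.53 in 19 cholesterol genes and -0.56 in 14 imprinted growth genes. The 52 cytosolic ribosomal protein genes had a median of 0.04 and the 79 nuclear-encoded genes of oxidative phosphorylation one of 0.08. The 14 tested immediate early genes, which respond to handling and stimuli, had a median of 1.58. With replicate 3 the medians were -0.78 for glycolysis and hypoxia, -0.18 for secretion and collagen folding, -0.69 for glycosaminoglycan synthesis, -1.44 for the amino acid response, 0.15 for cholesterol, -0.63 for imprinted growth genes and 2.08 for immediate early genes, and -0.08 and -0.04 for ribosomal proteins and oxidative phosphorylation. The nuclear long RNAs Malat1 and Neat1 summed to 20020 to 39540 CPM in the hypertrophic and 5764 to 25820 CPM in the proliferative libraries, with overlap.

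The same zones were also captured at P28 from ethanol-fixed sections, as 9 hypertrophic and 9 proliferative libraries, and the sums of the deeper ones were in the same fit. The animal Pup1_L and the estimate of the spread are shared between the fixations, so the calls are not independent. In ethanol, 73 of 9046 genes passed (0.807%), 37 higher (0.409%) and 36 lower (0.398%) in the hypertrophic zone. Of the 14 xylene calls without replicate 3, 10 (71.4%) were called in ethanol in the same direction, which is 13.7% of the ethanol calls. They were Alpl, Cxcr7, Ibsp, Irx5, Lipg, Loxl4, Mki67, Phex, Slc37a2 and Spp1. Ibsp rose by 11.07 ± 1.18 in xylene and by 8.78 ± 0.92 in ethanol on the log2 scale (SE), Loxl4 by 7.59 ± 1.15 and 6.72 ± 0.92, and Alpl by 3.72 ± 0.91 and 2.97 ± 0.76. The calls of Itga7, Hhip, Trabd2b and Scara3 did not recur in ethanol. There Itga7 had 3.82 ± 1.78, Hhip -2.51 ± 1.14 and Trabd2b -0.61 ± 1.38 (edgeR adjusted p = 0.444, 0.421 and 0.936).

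Some genes passed in ethanol and not in xylene. Prelp had -2.98 ± 0.82 in xylene without replicate 3 and fell by 4.31 ± 0.70 in ethanol (edgeR adjusted p = 1.41e-06). Aldh1a3 had 5.06 ± 1.28 and rose by 6.68 ± 1.03 (edgeR adjusted p = 4.24e-07), Fgfr1 had 5.22 ± 1.36 and rose by 5.41 ± 1.11 (0.000885), Frzb had 3.78 ± 1.11 and rose by 4.54 ± 0.92 (0.000721), and Ucma had -1.97 ± 0.98 and fell by 4.32 ± 0.94 (0.00238). The difference of the zone effect itself, xylene minus ethanol, had an adjusted p of 1 in edgeR for each of these genes, from -1.62 for Aldh1a3 to 2.35 for Ucma. Over all genes the difference passed for Scara3 alone of 9046 without replicate 3 (0.0111%, edgeR adjusted p = 0.0347). Its ethanol counts came almost wholly from 1 animal label, with 75 hypertrophic and 19 proliferative counts. Without replicate 3, 296 genes had an unadjusted p under 0.05 for the difference. With all libraries 0 of 9100 passed in edgeR and 291 had an unadjusted p under 0.05, while DESeq2 called 45 with all libraries and 52 without replicate 3.

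**Figure D5:**
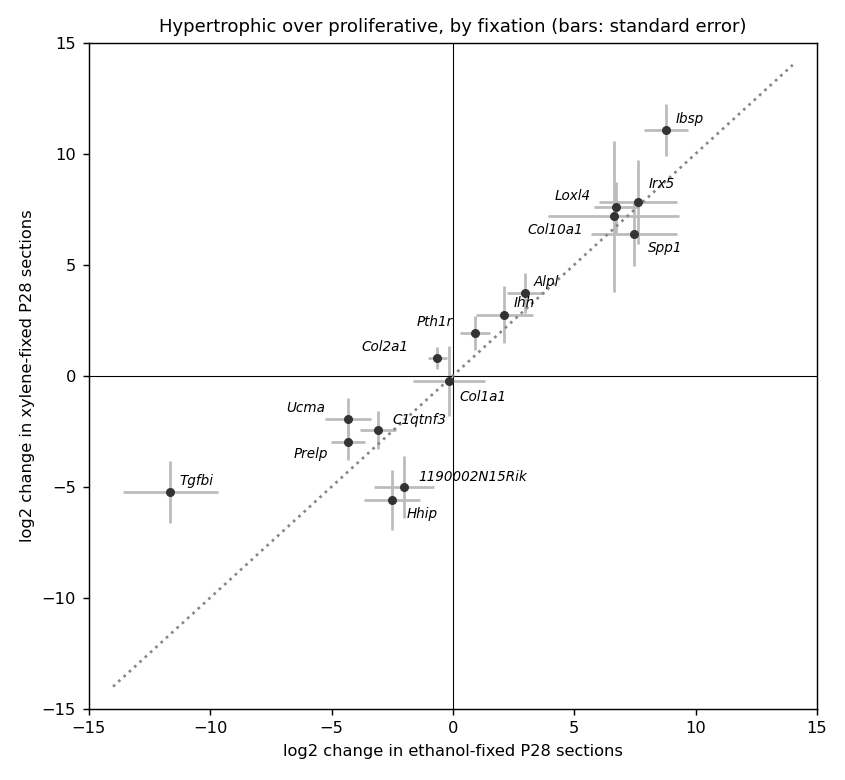
Log2 change, hypertrophic over proliferative, in xylene-fixed sections without hypertrophic replicate 3 (vertical) against ethanol-fixed sections (horizontal), for named genes with over 3 counts in each xylene zone. Bars are standard errors, the dotted line marks equal change, and both axes come from 1 fit that shares an animal. Ibsp lies highest in both (11.07 and 8.78), and Tgfbi lies farthest from the line (-5.23 and -11.64).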

How the data were processed

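Zones were picked by laser from frozen, stained sections and lysed straight into SMART-seq2 library preparation, per the labels. The authors deposited raw read counts per gene symbol for 23420 symbols. The submitters' processing notes name STAR 2.5.2b, featureCounts 1.5.3, Subread, cutadapt and the build mm10. Annotation and strand setting are, as far as the labels go, not given, and the method leaves strand unmarked, so overlapping genes and near-identical copies may share reads. Each of the 10 libraries had 2 columns, which differed by sampling noise (chi-square of 0.973 to 1.03 per gene) and were summed.

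Counts were summed per animal and zone, since the animal is the replicate. A single fit in edgeR 4.0.16 (R 4.3.3; TMM, filterByExpr, robust quasi-likelihood test, Benjamini-Hochberg adjustment over all genes tested) held 15 P28 sums, of which the xylene ones came from 2 animals and the ethanol ones from libraries of at least 100000 counts. It blocked on the animal within a fixation and fitted the zones separately per fixation, with 6 residual degrees of freedom. Resting zone sums were in the fit but are not described. One ethanol animal label is plural and may be a pool. The pairing of zones comes from the animal labels; deviations of the zones of 1 animal from the group means correlated by 0.0156. The p-values rest on 2 xylene animals and on a spread moderated across genes. The median prior degrees of freedom of that spread were infinite, so for the typical gene the shared spread set its p and SE. Such a p and SE do not measure how that gene itself varied between animals. Standard errors are the log2 change over the square root of F. Folds against 0 counts use a floor of 3 counts over the group, and intervals for 1 to 3 counts are exact at 95%; both cover counting error only. The statistics were tested on simulated data.

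The members and the gene lists were chosen with earlier results of these data known. Named genes were up to 15 per direction with the smallest p past the threshold and the same direction in both animals, filled to 5 where fewer passed, up to 4 per list with the smallest p, and a fixed set of zone, collagen and technical genes. Genes outside this rule with values in the text (Top2a, Matn1, Sox5, Plod1, Runx2 and the marker genes of hypertrophic replicate 3) were chosen after their values were seen. Leaving out hypertrophic replicate 3 had been set as an alternative; running every other alternative without it was added after seeing the data. Promoters came from RefSeq (GRCm38.p6) and positions from GENCODE M21. Alternatives were DESeq2 1.42.0, other scaling, filters, blocks and samples.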

Additional observations from a re-analysis of the deposited data

Results flagged for a closer look

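Named genes were screened for a library lying far from the others of its zone, which chance gives in about 1 of 20 groups. Of 60 groups screened, 13 had such a library, 8 of them in the hypertrophic zone, and 7 of these were hypertrophic replicate 3. In that library Col1a1 stood at 79760 CPM, Mmp13 at 1365 CPM, Hhip at 618.4 CPM, Tgfbi at 398.5 CPM, Scara3 at 355.7 CPM, Mki67 at 53.67 CPM and Trabd2b at 16.15 CPM, each above the other 4 hypertrophic libraries. Itga7 stood at 435.3 CPM in hypertrophic replicate 5. In the proliferative zone, Col10a1 stood at 8924 CPM and Spp1 at 47.64 CPM in replicate 5, and Tgfbi at 318.1 CPM, below the other libraries, Irx5 at 4.397 CPM and Phex at 0.7329 CPM in replicate 4. The Spp1 value rests on 3 counts and the Phex value on 1 count.

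The zone effect of Scara3 differed between fixations by a test of the difference: without hypertrophic replicate 3, xylene minus ethanol was -10.68 on the log2 scale (edgeR adjusted p = 0.0347). The 4 hypertrophic xylene libraries held 0 counts, so the fitted size depends on the prior count and is no bound. In ethanol the change was 3.08 ± 1.41 (SE, edgeR adjusted p = 0.428). The ethanol sums held 0, 75 and 1 hypertrophic counts and 0, 19 and 0 proliferative counts. The 75 and 19 counts are from the animal label that may be a pool. Pup1_L, which gave both fixations, had 1 and 0 counts in ethanol. A difference between animals was not tested. The difference did not pass with all libraries.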

How the results depend on the processing

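Only 2 animals gave the xylene sums. Proliferative replicate 5 had 62977 counts outside Rn45s, Lars2 and Glra2. Leaving it out gave 6 calls in place of 5 with all libraries, and 15 in place of 14 without hypertrophic replicate 3. Called genes with all libraries (5) became 11 with RLE scaling, 37 with DESeq2, 10 with the 3 symbols removed, 15 with P2 sums added, 7 with sums thinned to 1 total, 16 with libraries as single samples, 59 with xylene sums alone, 1 without Pup1_L and 4 without Pup4_L, and 4 to 14 when 1 library was left out. Without hypertrophic replicate 3 the 14 calls became 18 with RLE scaling, 75 with DESeq2, 5 with no filter on low counts, 22 with P2 sums added, 43 with xylene sums alone, 73 with libraries as single samples, 10 with sums thinned, 1 without Pup1_L and 2 without Pup4_L, and 1 to 23 when 1 more library was left out. Without the replicate block the calls were 17 and 17. DESeq2 split its calls into 34 higher and 41 lower without replicate 3 (edgeR 10 and 4) and into 33 and 4 with it.

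The difference between fixations had 0 calls with all libraries, against 1 with RLE scaling, 45 with DESeq2, 3 with no replicate block, 1 with P2 sums added, 1 without Pup4_L and 0 to 4 with 1 library left out. Without replicate 3 it had 1 call, against 52 with DESeq2, 0 with no filter, 0 with P2 sums added, 0 without Pup1_L, 0 without Pup4_L and 0 to 1 with 1 library left out. The causes were not tested.

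Ibsp kept its call in 10 of 10 and 9 of 9 fits with a library left out. Leaving out hypertrophic replicate 5, which is all of Pup4_L in that zone, ended every other call made without replicate 3; of these, the calls of Spp1, Mki67, Cxcr7, Irx5, Itga7, Alpl, Lipg, Slc37a2, Trabd2b and Scara3 also ended without hypertrophic replicate 4. Among the proliferative libraries, leaving out replicate 4 ended the calls of Spp1, Cxcr7, Itga7, Alpl, Lipg, Slc37a2 and Scara3, replicate 2 those of Itga7, Lipg, Slc37a2, Scara3 and Hhip, replicate 3 those of Itga7 and Slc37a2, and replicate 1 that of Slc37a2. The Scara3 difference between fixations ended without hypertrophic replicate 1, 4 or 5 or proliferative replicate 2. With all libraries, Prelp lost its call without hypertrophic replicates 3, 4 or 5 or proliferative replicate 2, Mmp13 without hypertrophic replicate 3 or proliferative replicate 4, and Loxl4 and Phex without hypertrophic replicate 5. The direction turned in a few named genes. Scara3 with all libraries had -7.222 without Pup1_L, -1.057 with xylene sums alone and -7.601 to 2.509 with 1 library left out. Col1a1 without replicate 3 had 0.792 without Pup1_L, 0.040 with xylene sums alone and -0.923 to 0.531; with all libraries -0.251 to 9.374. Col2a1 with all libraries had -0.645 without Pup4_L and -0.632 to 0.793. Fgfr3 without replicate 3 had -0.699 without Pup1_L. Leaving out proliferative replicate 4 moved the median of all genes to 0.38.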
